A study of Mus musculus with 6 samples.

Results

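Genes of phospholipid synthesis and remodelling were followed in whole sciatic nerve of mice that lack Srebf-1c. The 34 genes were listed by symbol, with no value as a criterion, though earlier results of these data were known. Of them, 31 had a probe set that the array annotation assigns to 1 gene symbol, of 22180 genes measured in this way. The 3 genes without such a probe set were the choline kinase gene Chkb and the choline/ethanolamine phosphotransferase gene Cept1, whose probe sets are shared with another gene, and the ethanolamine kinase gene Etnk2. The series holds 6 arrays of whole sciatic nerve from mice aged 10 months: 3 from wild-type littermates and 3 from Srebf-1c KO mice. Srebf-1c is a form of the transcription factor made by Srebf1, known for driving genes of fatty acid synthesis. The labels name no other allele, no treatment and no sex, and do not state whether the 3 samples of a genotype came from different mice, so the p-values reflect only how far these samples scatter, part of which may be technical.

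Phosphatidylcholine and phosphatidylethanolamine, the main phospholipids of cell membranes, are made by parallel routes in which choline or ethanolamine is phosphorylated, activated with CTP and joined to diacylglycerol. Phosphatidylserine is made from these by head group exchange, while inositol phospholipids and the mitochondrial lipid cardiolipin are made from CDP-diacylglycerol. After synthesis the acyl chains are exchanged: phospholipases A2 remove a fatty acid and acyltransferases put another in its place. In peripheral nerve, Schwann cells use large amounts of these lipids for the myelin sheath, which is rich in ethanolamine plasmalogens.

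The targeted gene was lower on all KO arrays. Srebf1 had a log2 intensity of 9.53, 9.55 and 9.70 in wild-type replicates 1 to 3 against 8.11, 8.06 and 8.04 in KO replicates 1 to 3, a log2 fold change (KO minus wild type) of -1.52 ± 0.11 (SE; limma, adjusted p = 0.0497), the only gene of 22180 past an adjusted p of 0.05. Of 12 myelinating Schwann cell markers 9 were measured, and their summed intensity ran from 34635 to 43161 in wild type and from 38086 to 42160 in KO, with no marker at 0. The summed intensity of 17 adipocyte markers ran from 15248 to 52518 in wild type and from 13936 to 49980 in KO, highest on wild-type replicate 3 and KO replicate 2, and that of 20 skeletal muscle markers ran from 56071 to 149544 and from 82203 to 139289. In such bulk tissue, fewer cells of a type and less RNA per cell cannot be told apart.

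Promoter windows of the members are shown because the deleted factor binds DNA at sterol regulatory elements, often beside sites of NF-Y and Sp1. RefSeq windows on the mouse build GRCm38.p6, each from 250 bases before to 50 bases after a transcript start, were at hand for 27 of the 31 measured members, in 39 windows. No window was at hand for Pcyt2, Cdipt, Agpat5 and Ptdss1, so these genes were not searched. Both strands were searched for a sterol regulatory element core, TCACNCCAC, for the NF-Y box, CCAAT, for the GC box bound by Sp1, GGGCGG, and for an E-box, CACGTG, which SREBP proteins can also bind. Pcyt1a is shown as the only member whose windows held the sterol regulatory element core, and Lpcat2, Ptdss2 and Chpt1 as the members with a window whose 3 KO values all lay on 1 side of the 3 wild-type values. The windows lie at chr16:32430671-32430970 (Pcyt1a, plus strand), chr8:92855083-92855382 (Lpcat2, plus strand), chr7:141131036-141131335 (Ptdss2, plus strand) and chr10:88503921-88504220 (Chpt1, minus strand). They are written 5′ to 3′ on the strand of the gene, with matches to the searched motifs in capitals.
Pcyt1a: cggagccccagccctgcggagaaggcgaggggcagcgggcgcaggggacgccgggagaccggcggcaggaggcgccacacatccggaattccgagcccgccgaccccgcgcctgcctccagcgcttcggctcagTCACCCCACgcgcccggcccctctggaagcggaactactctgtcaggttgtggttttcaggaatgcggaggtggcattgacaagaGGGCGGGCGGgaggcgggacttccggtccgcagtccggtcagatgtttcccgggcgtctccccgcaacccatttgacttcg
Lpcat2: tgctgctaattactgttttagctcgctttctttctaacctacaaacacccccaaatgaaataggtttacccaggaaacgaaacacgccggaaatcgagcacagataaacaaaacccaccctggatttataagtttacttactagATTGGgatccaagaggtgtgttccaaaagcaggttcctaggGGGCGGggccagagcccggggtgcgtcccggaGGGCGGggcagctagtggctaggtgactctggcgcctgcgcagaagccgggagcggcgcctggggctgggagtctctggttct
Ptdss2: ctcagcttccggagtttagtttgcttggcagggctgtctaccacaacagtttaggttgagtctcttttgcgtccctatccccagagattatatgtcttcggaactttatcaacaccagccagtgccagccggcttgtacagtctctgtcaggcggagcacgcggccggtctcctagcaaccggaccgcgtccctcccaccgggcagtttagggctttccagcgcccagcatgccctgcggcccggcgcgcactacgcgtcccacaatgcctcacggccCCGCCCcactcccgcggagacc
Chpt1: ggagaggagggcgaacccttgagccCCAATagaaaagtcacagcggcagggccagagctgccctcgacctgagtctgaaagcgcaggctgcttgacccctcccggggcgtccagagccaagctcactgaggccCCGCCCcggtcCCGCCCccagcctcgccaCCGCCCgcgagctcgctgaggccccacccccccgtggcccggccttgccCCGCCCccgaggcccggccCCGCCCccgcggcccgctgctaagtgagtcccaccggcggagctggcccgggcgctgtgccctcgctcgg

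The sterol regulatory element core of Pcyt1a starts 116 bases before the transcript start of the window shown, on the strand of the gene. Another Pcyt1a window holds the same site 215 bases before its start, and a further Pcyt1a window holds none. The 2 windows with the core overlap and share this 1 site, so their 5.13% of the members' windows counts it more than once. By gene, it is 1 of 27 members searched. The core was held by 1.24% of all 32851 windows of this length and by 1.19% of those of protein-coding genes. The other capitals of Pcyt1a are GC boxes starting 31 and 27 bases before the start, which overlap each other. Lpcat2 held an NF-Y box on the reverse strand 106 bases before the start and GC boxes at 65 and 33 bases before it. Ptdss2 held a GC box on the reverse strand 28 bases after the start. Chpt1 held an NF-Y box 225 bases before the start and 5 GC boxes on the reverse strand between 117 and 20 bases before it. Over the members, 15 of 27 genes held an NF-Y box (43.6% of their windows, against 38.2% of the 21263 windows of protein-coding genes and 37.4% of all windows), 20 held a GC box (59.0%, against 46.2% and 35.7%) and 3, Crls1, Lpin2 and Lpin3, held the E-box (7.69%, against 7.84% and 7.15%). A match describes letters in the window and not a bound site.

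No phospholipid gene passed an adjusted p of 0.05, and most differences between the genotypes were small. Of 31 members 11 were higher and 20 lower in KO, with a median log2 fold change of -0.05 against -0.03 over all genes (0.00841 for the members without KO replicate 1), and 64.5% of members against 56.9% of all genes were lower. The share of lower members was 74.2% (23 members, against 66.7% of all genes) with the arrays brought to 1 median and 58.1% (18 members, against 59.1%) with quantile normalization repeated, since Etnk1, Agpat3 and Mboat7 turned lower in the former and Pcyt1b and Agpat5 turned higher in the latter. It was also below that of all genes without wild-type replicate 2 (51.6% against 57.7%) and without KO replicate 1 (48.4% against 56.3%). In limma, 2 of 31 members (6.45%) had an unadjusted p under 0.05, against 5.83% of all genes: Pcyt2 and Lpcat2, both lower in KO. The count was 1 when wild-type replicate 2 or 3 or any KO array was left out, but not always from this pair. The member was Pcyt2 without wild-type replicate 3 or KO replicate 1 and Lpcat2 without KO replicate 3. It was Pla2g6 without wild-type replicate 2 and Pla2g4a without KO replicate 2. The smallest adjusted p of a member was 0.850, and 0.00451% of all genes, Srebf1 alone, passed the adjusted limit. The design text of the series asks for an unadjusted ANOVA p under 0.05 with at least 1.5-fold change, which no member met. With limma's p in place of the ANOVA's, Lpcat2 alone among the members met these limits, as did 1.19% of all genes, and 0 members did without wild-type replicate 2, wild-type replicate 3 or KO replicate 1.

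The 95% interval of the fold change lay within 1.5-fold in either direction for 23 of 31 members (74.2%, against 61.2% of all genes), and 29 of 31 members were brighter than the median gene. Members had a median SE of 0.14 on the log2 scale. Over the 6 arrays, the log2 intensity of 19 members ranged by less than 0.5, and 2 members ranged by more than 1: Lpcat2 (2.87-fold) and Pla2g4a (2.29-fold). Agpat5, an acyltransferase that makes phosphatidic acid, was the steadiest, at 8.75 to 8.85 on all arrays.

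**Figure D1:**
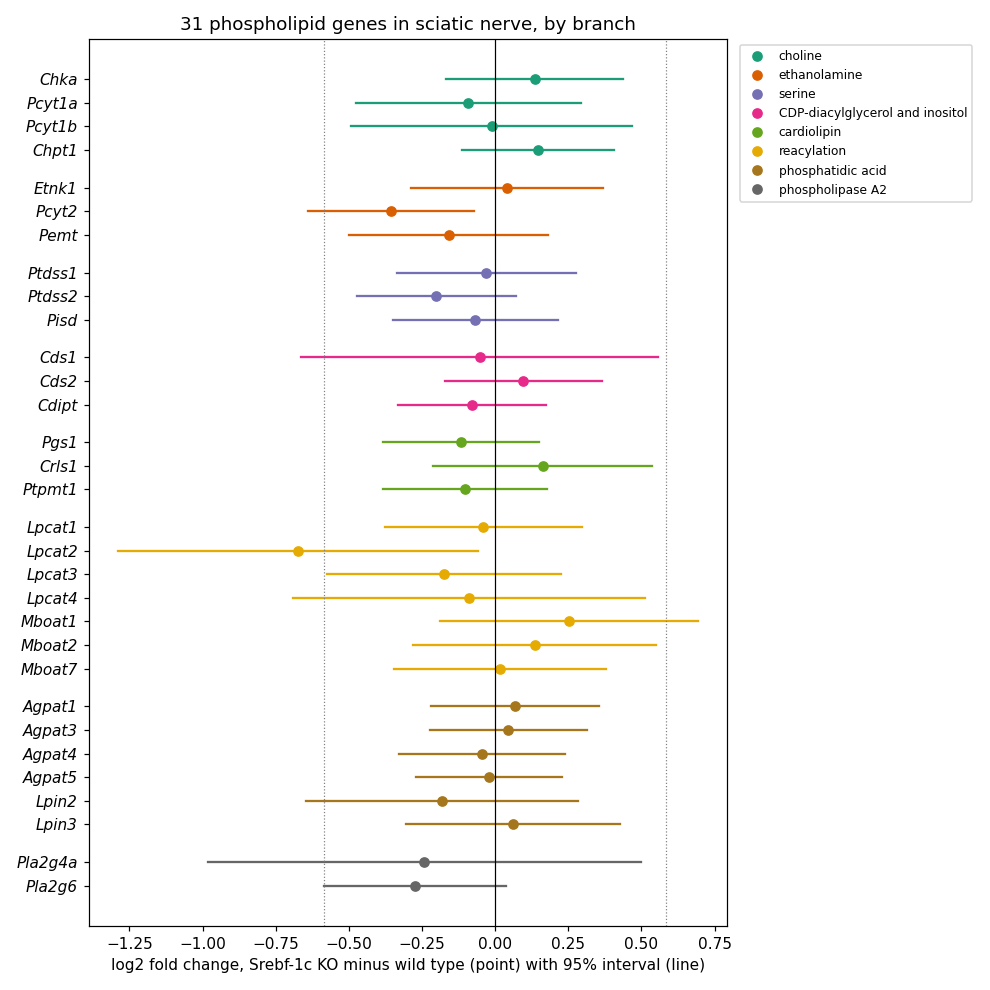
Log2 fold change (KO minus wild type, horizontal axis) of 31 phospholipid genes, grouped and coloured by branch; points are limma estimates from 3 arrays against 3, lines their 95% intervals and dotted lines mark 1.5-fold. The intervals of Pcyt2 and Lpcat2 lie wholly below 0, and those of the other members cross 0.

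The groups of 4 members did not overlap (12.9%, against 12.3% of all genes). In Pcyt2, Lpcat2 and Ptdss2 all KO values lay below all wild-type values, which held for 8.21% of all genes, and in Chpt1 all lay above, which held for 4.08%. Their shares among members were 9.68% and 3.23%. With an array left out, groups overlap less often in all genes too: the count was 12 (38.7%, against 22.8% of all genes) without wild-type replicate 2, 8 (25.8% against 24.7%) without wild-type replicate 3, 7 (22.6% against 19.7%) without KO replicate 1 and 8 (25.8% against 26.6%) without KO replicate 2. It was also 4 without wild-type replicate 1 (12.9% against 23.7%) or KO replicate 3 (against 17.0%), and was 7 (22.6% against 15.1%) with the arrays brought to 1 median.

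**Figure D2:**
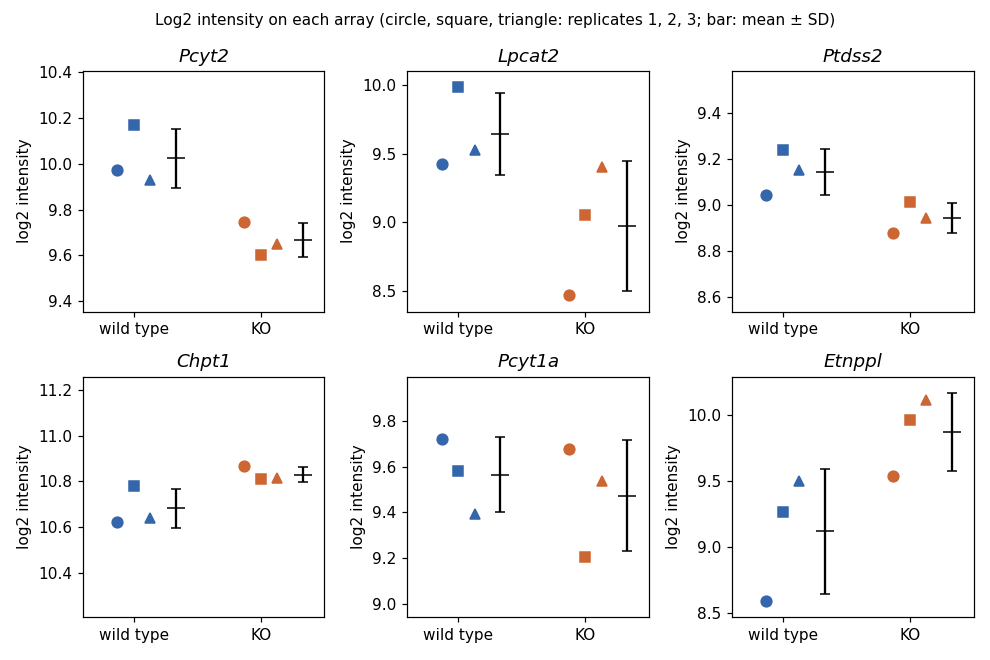
Log2 intensity (vertical axis, with its own range in each panel) of 5 members and of Etnppl, a lyase of the same pathway; each point is 1 array, with circles, squares and triangles for replicates 1, 2 and 3, and bars show the mean and SD of 3 arrays. The groups of Pcyt1a overlap and those of the other panels do not.

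In the ethanolamine branch, Pcyt2 was the member with the smallest p of the whole set. Pcyt2 encodes the cytidylyl-transferase that activates phosphoethanolamine with CTP, the step regarded as limiting for making phosphatidylethanolamine this way. Measured log2 intensities were 9.97, 10.17 and 9.93 in wild-type replicates 1 to 3 against 9.75, 9.60 and 9.65 in KO replicates 1 to 3. All KO arrays lay below all wild-type arrays, with KO replicate 1 nearest to them. In log2 terms the fold change was -0.36 ± 0.12 (SE; 95% interval -0.64 to -0.07), a KO level 0.781 times that of wild type (limma, unadjusted p = 0.0210, adjusted p = 0.850). The difference kept its sign with each array left out in turn, at -0.40 to -0.28, but its unadjusted p was 0.0527 without wild-type replicate 2, 0.0650 without KO replicate 2 and 0.0641 without KO replicate 3. With the adipocyte score as a covariate the log2 fold change of Pcyt2 was -0.37 (unadjusted p = 0.0236), and with the muscle score it was -0.35 (0.0288).

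The other measured genes of the branch had groups that overlapped. Etnk1, the kinase that makes phosphoethanolamine, had a log2 fold change of 0.04 ± 0.14. Pemt, which methylates phosphatidylethanolamine to phosphatidylcholine, had a value of -0.16 ± 0.14 (95% interval -0.50 to 0.18), with KO arrays at 7.60 to 7.64 and wild-type arrays at 7.59 to 8.04. Averaged over Etnk1, Pcyt2 and Pemt, the deviation from the 6-array mean was 0.02, 0.13 and 0.09 in wild-type replicates 1 to 3 against -0.08, -0.12 and -0.04 in KO replicates 1 to 3. The KO arrays lay below the wild-type arrays in this mean. Pcyt2 gave the largest difference of the 3 genes averaged, so the mean is no result separate from that of Pcyt2. The branch's median log2 fold change of -0.16 ran from -0.26 without wild-type replicate 2 to -0.03 without wild-type replicate 3.

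**Figure D3:**
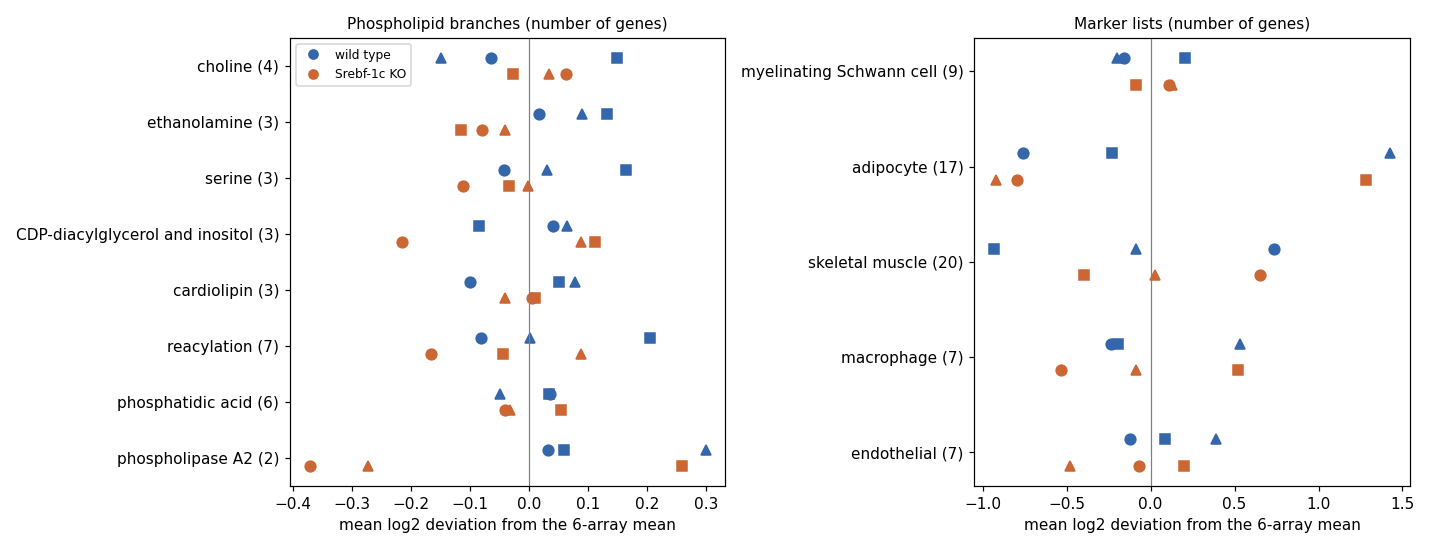
Mean log2 deviation from the 6-array mean (horizontal axis) of each phospholipid branch (left) and of marker lists of cell types (right), with the number of genes in brackets; each point is 1 array, with circles, squares and triangles for replicates 1, 2 and 3. The ethanolamine points, which include Pcyt2, lie further left for the KO arrays than for the wild-type arrays. The adipocyte list is highest on wild-type replicate 3 and KO replicate 2.

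The choline branch held members on both sides of 0. Chpt1, the Golgi cholinephosphotransferase that joins CDP-choline to diacylglycerol, had a log2 intensity of 10.62, 10.78 and 10.64 in wild type against 10.87, 10.81 and 10.81 in KO. All KO arrays lay above all wild-type arrays, with wild-type replicate 2 only just below them, and the groups overlapped once the arrays were brought to 1 median. The log2 fold change of Chpt1 was 0.15 ± 0.11 (limma, unadjusted p = 0.222), while the ANOVA named in the design text gave an unadjusted p of 0.0483. Chka, the kinase that commits choline to the pathway, had a log2 fold change of 0.13 ± 0.13. A second, dimmer probe set of Chka gave 0.12 ± 0.21.

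The cytidylyl-transferases of the choline branch, which carry out its rate-limiting step, had no difference past the spread between arrays. Pcyt1a, whose promoter window held the sterol regulatory element core, read 9.72, 9.58 and 9.39 in wild type against 9.68, 9.21 and 9.54 in KO. The groups overlapped throughout, with KO replicate 1 above wild-type replicates 2 and 3. Its log2 fold change was -0.09 ± 0.16, with a 95% interval of -0.48 to 0.29 that leaves room for a change of either sign. Pcyt1b, the paralogue known for its expression in brain and gonads, had a log2 fold change of -0.01 ± 0.20 (0.02 with quantile normalization repeated). The branch had a median log2 fold change of 0.06, from -0.02 without wild-type replicate 3 to 0.20 without wild-type replicate 2.

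The probe sets shared with another gene cannot be assigned to either, so they are given only as measured. The probe set shared by Chkb and Gm44502 read 6.915, 7.345 and 7.211 in wild type against 7.543, 7.349 and 7.471 in KO. Its log2 fold change was 0.30 ± 0.16 (limma, unadjusted p = 0.0968). All its KO values lay above all its wild-type values, as held for 4.08% of all genes, but replicate 2 of each genotype was nearly equal. A further probe set of Chkb and Gm44502, shared also with the muscle carnitine transferase gene Cpt1b, gave 0.52 ± 0.51. The set shared by Cept1 and the neighbouring gene Dram2 gave -0.12 ± 0.19, and that shared by Chpt1 and Sycp3 gave 0.14 ± 0.24.

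All 3 serine branch genes had lower means in KO, as did 56.9% of all genes, and 1 of the 3 had groups that did not overlap. Ptdss2, a synthase that exchanges the head group of phosphatidylethanolamine for serine, had a log2 intensity of 9.04, 9.24 and 9.15 in wild type against 8.88, 9.01 and 8.94 in KO. The lowest wild-type array, replicate 1, lay just above the highest KO array, replicate 2. Ptdss2 had a log2 fold change of -0.20 ± 0.12 (limma, unadjusted p = 0.124; ANOVA, unadjusted p = 0.0438). Ptdss1, the synthase that uses phosphatidylcholine, had a log2 fold change of -0.03 ± 0.13. Pisd, the mitochondrial decarboxylase that turns phosphatidylserine into phosphatidylethanolamine, had a value of -0.07 ± 0.12. The branch median of -0.07 moved between -0.125 without wild-type replicate 3 and 0.01 without wild-type replicate 2.

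Lpcat2 had the largest difference of any measured member and lay in the reacylation branch, where no other gene had an unadjusted p under 0.05 in limma. Lpcat2 encodes an acyltransferase that reacylates lysophosphatidylcholine and also makes platelet-activating factor, and it is known from macrophages and other inflammatory cells. Measured log2 intensities were 9.43, 9.99 and 9.53 in wild-type replicates 1 to 3 against 8.47, 9.05 and 9.40 in KO replicates 1 to 3. All KO arrays lay below all wild-type arrays, but the KO arrays spread widely and replicate 3 came close to wild-type replicate 1. This gave a log2 fold change of -0.67 ± 0.26 (95% interval -1.29 to -0.06), a level 1.60-fold lower in KO (limma, unadjusted p = 0.0360, adjusted p = 0.850).

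The call of Lpcat2 rested on several arrays together. Its unadjusted p was 0.123 without wild-type replicate 2, 0.0562 without wild-type replicate 3, 0.104 without KO replicate 1 and 0.0598 without KO replicate 2, with log2 fold changes from -0.73 to -0.42 in these fits. With the adipocyte score as a covariate Lpcat2 had a log2 fold change of -0.67 (limma, unadjusted p = 0.0494), and with the muscle score one of -0.595 (0.0275). Its unadjusted p was 0.105 by the ANOVA and 0.0930 in limma with array weights. Beside it, the mean deviation of 7 macrophage markers was -0.24, -0.19 and 0.53 in wild type against -0.54, 0.52 and -0.09 in KO, so that KO replicate 1 was lowest for both and KO replicate 2 was high for the markers and not for Lpcat2. The summed intensity of these markers ran from 2654 to 5015 in wild type and from 1996 to 4905 in KO, with no marker at 0, and their part in the result was not tested.

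Among the other acyltransferases, Mboat1 was the member with the largest positive difference. Mboat1, which acylates lysophosphatidylserine and lysophosphatidylethanolamine, read 10.88, 11.56 and 11.37 in wild type against 11.49, 11.45 and 11.64 in KO. Wild-type replicate 1 stood low and the other wild-type arrays lay within or near the KO values, so the groups overlapped. Its log2 fold change was 0.25 ± 0.19 (limma, unadjusted p = 0.220), and 0.06 without wild-type replicate 1.

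Mboat2, a related acyltransferase of lysophosphatidylcholine and lysophosphatidylethanolamine, had a log2 fold change of 0.14 ± 0.18. Mboat7, which places arachidonate on lysophosphatidylinositol, had a value of 0.02 ± 0.15, and -0.03 with the arrays brought to 1 median. Lpcat3, the acyltransferase that makes polyunsaturated phosphatidylcholine and is a known target of liver X receptors, had a log2 fold change of -0.18 ± 0.17. It read 9.99, 10.12 and 10.50 in wild type against 9.85, 10.19 and 10.04 in KO, and was highest on wild-type replicate 3 and KO replicate 2, the arrays with the highest adipocyte marker sums. Lpcat1, known for making the saturated phosphatidylcholine of lung surfactant, had a log2 fold change of -0.04 ± 0.14, and Lpcat4 one of -0.09 ± 0.26. The 7 genes had a median of -0.04 (0.04 without wild-type replicate 2), with 3 higher and 4 lower.

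The phospholipase A2 genes, which open the remodelling cycle, both had lower means in KO, as did 56.9% of all genes. Pla2g6, the calcium-independent phospholipase whose loss causes neuroaxonal dystrophy, read 9.05, 8.72 and 8.99 in wild type against 8.66, 8.73 and 8.55 in KO. Wild-type replicate 2 lay among the KO arrays and the other wild-type arrays lay above them. The log2 fold change of Pla2g6 was -0.27 ± 0.13 (limma, unadjusted p = 0.0764, adjusted p = 0.867), and it passed an unadjusted 0.05 with array weights (-0.31) and without wild-type replicate 2 (-0.37).

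Pla2g4a, the cytosolic phospholipase that releases arachidonate, read 7.28, 7.65 and 7.86 in wild type against 6.85, 8.05 and 7.16 in KO. Its log2 fold change was -0.24 ± 0.31, and KO replicate 2 was the highest array of all while the other KO arrays were the lowest. Without KO replicate 2 the log2 fold change was -0.59, and Pla2g4a then had an unadjusted p under 0.05, while without KO replicate 1 it was 0.00841. The pair had a median of -0.26, which was -0.45 without KO replicate 2 and -0.14 without KO replicate 1.

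**Figure D4:**
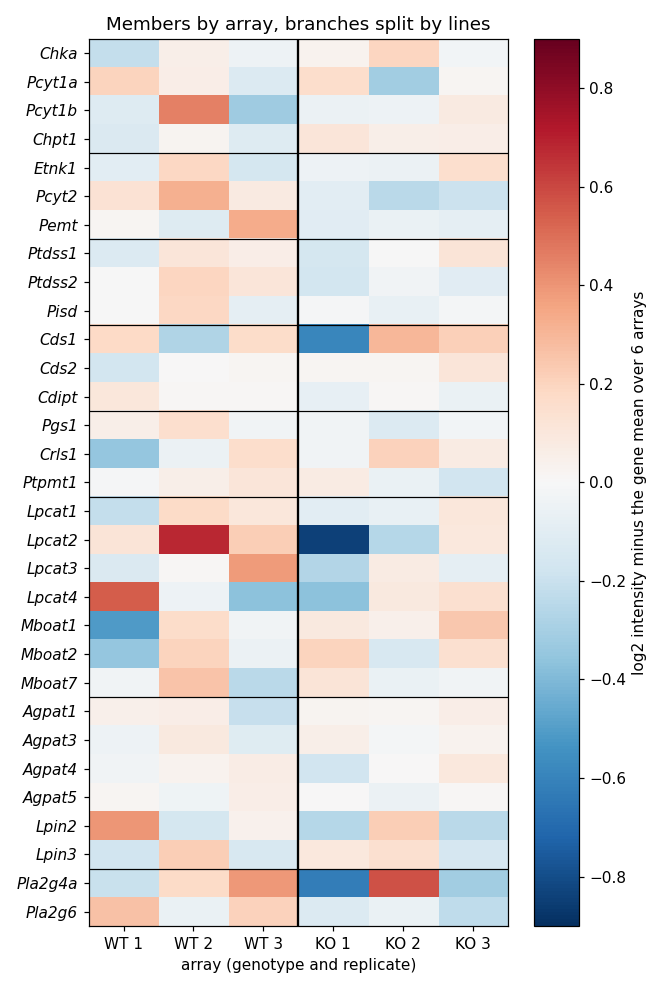
Log2 deviation of each of 31 phospholipid genes (rows, by branch) from its mean over the 6 arrays (columns, wild type left and KO right), with blue below and red above the mean. Pcyt2 is below its mean in all KO columns, and the darkest cells belong to Lpcat2, on KO replicate 1 and wild-type replicate 2.

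In the branch that leads through CDP-diacylglycerol to inositol lipids, values were close to 0. Cds1 and Cds2, the synthases of CDP-diacylglycerol, had log2 fold changes of -0.05 ± 0.26 and 0.10 ± 0.11, and Cds1 ranged from 6.43 on KO replicate 1 to 7.31 on KO replicate 2. Cdipt, which joins CDP-diacylglycerol and inositol, had a value of -0.08 ± 0.11. The branch median of -0.05 turned to 0.11 without KO replicate 1.

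The cardiolipin genes likewise had small values of both signs. Crls1, the synthase of the final step in mitochondria, read 8.02, 8.31 and 8.52 in wild type against 8.33, 8.57 and 8.44 in KO. Wild-type replicate 1 was the lowest, and the other wild-type arrays lay among or near the KO arrays. Crls1 had a log2 fold change of 0.16 ± 0.16 (limma, unadjusted p = 0.340), and 0.03 without wild-type replicate 1. Pgs1, which makes phosphatidylglycerophosphate, had a value of -0.12 ± 0.11, and Ptpmt1, the phosphatase that follows it, one of -0.10 ± 0.12.

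The genes that supply phosphatidic acid and diacylglycerol were mostly close to 0. The acyltransferases of lysophosphatidic acid had log2 fold changes of 0.07 ± 0.12 (Agpat1), 0.05 ± 0.11 (Agpat3), -0.05 ± 0.12 (Agpat4) and -0.02 ± 0.11 (Agpat5). Agpat3 was at -0.001 with the arrays brought to 1 median and Agpat5 at 0.02 with quantile normalization repeated. The lipins, phosphatases that turn phosphatidic acid into diacylglycerol, had values of -0.18 ± 0.20 (Lpin2) and 0.06 ± 0.16 (Lpin3), while a second, dimmer probe set of Lpin2 gave 0.05 ± 0.29. The branch median was 0.01 and turned to -0.03 with the arrays brought to 1 median and to -0.02 without the dimmest 50% of genes.

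Among 46 other genes of glycerophospholipid synthesis, turnover and choline uptake, 45 were measured. In KO 22 were higher and 23 lower (51.1%, against 56.9% of all genes), with a median log2 fold change of -0.01 (-0.03 over all genes). Of these 45, 1 (2.22%, against 5.83% of all genes) had an unadjusted p under 0.05 in limma and none passed the adjusted limit. It was Etnppl, which encodes the lyase that breaks down phosphoethanolamine, the substrate of Pcyt2. Etnppl read 8.59, 9.26 and 9.50 in wild-type replicates 1 to 3 against 9.54, 9.96 and 10.11 in KO replicates 1 to 3. All KO arrays lay above all wild-type arrays, with KO replicate 1 close to wild-type replicate 3. Etnppl had a log2 fold change of 0.75 ± 0.26, a 1.68-fold higher level (limma, unadjusted p = 0.0231, adjusted p = 0.850; ANOVA, unadjusted p = 0.0798). Its unadjusted p was 0.0521 without wild-type replicate 1 (log2 fold change 0.49), 0.0603 without KO replicate 2 and 0.0772 without KO replicate 3, and its groups overlapped with the arrays brought to 1 median.

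All KO values lay below all wild-type values for 2 of these 45 genes (4.44%, against 8.21% of all genes). Tamm41, the mitochondrial CDP-diacylglycerol synthase upstream of cardiolipin, had a log2 fold change of -0.24 ± 0.11 (limma, unadjusted p = 0.0611). Pld2, a phospholipase D that cleaves phosphatidylcholine to phosphatidic acid, had a value of -0.32 ± 0.14 (0.0621). The next smallest p-values among lower genes belonged to Taz, the tafazzin that remodels cardiolipin (-0.24 ± 0.14), and to Plaat3, a phospholipase and acyltransferase (-0.19 ± 0.12). Among higher genes they belonged to Abhd4, a hydrolase of N-acyl phosphatidylethanolamine (0.27 ± 0.17), to Pnpla8, a calcium-independent phospholipase (0.16 ± 0.13), and to Selenoi, the ethanolaminephosphotransferase that acts after Pcyt2 (0.16 ± 0.18).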

How the data were processed

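RNA of 6 whole sciatic nerve samples was hybridised to 1 Affymetrix whole-transcript array each, per the labels. The deposited values are probe set intensities. Per the series' design text, the authors worked with TAC and Partek software and computed them by the Robust Multichip Average, which corrects background, normalizes arrays to each other and combines probes. Such normalization removes a shift shared by most genes, though small differences between the array medians remained. That the intensities are on a linear scale was inferred from their range, 3.67 to 23738. The submitters' processing notes name the build mm8, and the sources used here give no software versions. RefSeq windows are on another build, GRCm38.p6, and served only for sequence.

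Groups followed the sample titles and the genotype field. For the KO samples a further field, the source, names wild type and contradicts both. Arrays were compared with each other first, and no pair shared more than 0.117% of its values. Same-numbered samples did not deviate together (correlations of 0.12, 0.01 and -0.23), so the numbers were not taken as pairs.

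Log2 was taken with no pseudocount. Of 41077 probe sets, 23521 had 1 gene symbol, 1814 several and 15742 none. For a gene with several, the brightest over the 6 arrays was taken, and no dim gene was left out. KO and wild type were compared with limma 3.58.1 (lmFit, eBayes) under R 4.3.3 for all 22180 genes, two-sided, with Benjamini-Hochberg adjustment over all genes. The method was tested on simulated data. The study's criterion, stated for an ANOVA, was read on limma's p, and the ANOVA itself was an alternative. The number of arrays limits the precision. Tables and plots used Python 3.11.15, pandas 2.3.3, numpy 2.4.6 and matplotlib 3.10.9.

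The members and the lists were chosen with earlier results of these data known. All members and Srebf1 were named, with the 4 smallest p-values in each direction among other pathway genes. Values by array were given for members with an unadjusted p under 0.05 and for the 3 largest positive and 3 largest negative differences. Those of Ptdss2, Pcyt1a, Lpcat3, Pla2g4a and Etnppl were added after their values were seen. Alternatives were a replicate block, array weights, the ANOVA, a robust prior with intensity trend, dropping the dimmest 25% or 50% of genes, repeated quantile normalization, arrays at 1 median, mean of probe sets, adipocyte or muscle scores as covariates and leaving out each array. Probe sets shared by several genes were added after seeing the data.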

Additional observations from a re-analysis of the deposited data

How the results depend on the processing

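With 3 arrays against 3, small differences could not be resolved. No member passed an adjusted p of 0.05 in limma under any alternative with a test. Of 31 members, 15 kept the sign of their difference in all 17 alternatives and 16 did not. The number with an unadjusted p under 0.05 was 1 to 2 with each array left out in turn, and the pair Pcyt2 and Lpcat2 was replaced by Chpt1, Pcyt2 and Ptdss2 in the ANOVA and by Pcyt2 and Pla2g6 with array weights. With a replicate block the 2 members were again Pcyt2 (log2 fold change -0.36) and Lpcat2 (-0.67). The criterion of the study took 0 members in the ANOVA and with array weights, and 0 to 1 with each array left out in turn.

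Of the other pathway genes, 2 had an unadjusted p under 0.05 with the replicate block, an intensity trend or the muscle score. Either filter on dim genes also gave 2. Array weights or arrays at 1 median gave 3, and leaving out 1 array gave 0 to 2. Among all 22180 genes, 1412 had an unadjusted p under 0.05 in the ANOVA against 1293 in limma. No such count over all genes is at hand for the other alternatives. Whether the counts of members and other pathway genes moved more than that of all genes was therefore not tested there. Members whose groups did not overlap numbered 7 with arrays at 1 median (22.6%, against 15.1% of all genes) and from 4 to 12 with each array left out in turn (12.9% to 38.7%, against 17.0% to 26.6% of all genes). Median log2 fold changes with arrays at 1 median were -0.148 for cardiolipin, -0.0342 for phosphatidic acid and -0.0923 for all members, against -0.0788 over all genes, and phosphatidic acid was at -0.0207 without the dimmest 50% of genes. Without any 1 array the medians ran from -0.0231 to 0.197 (choline), -0.256 to -0.030 (ethanolamine), -0.106 to 0.114 (CDP-diacylglycerol and inositol), -0.131 to -0.0408 (cardiolipin) and -0.0752 to 0.00841 (all members). The log2 fold change of Srebf1 kept its size but missed an adjusted 0.05 with the replicate block (-1.52), the ANOVA (-1.52), arrays at 1 median (-1.57), the adipocyte score (-1.51), the muscle score (-1.53) and with each array left out in turn (-1.56 to -1.47). Median intensities over all probe sets were 117.99, 117.62 and 115.5 in wild-type replicates 1 to 3 against 121.17, 118.87 and 122.57 in KO replicates 1 to 3. Bringing the arrays to 1 median takes this offset from every gene alike, which lowers all log2 fold changes by the same amount. The causes of the other shifts were not tested.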

Other observations

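Several phospholipid genes outside the named set were highest on 1 array of each genotype, wild-type replicate 3 and KO replicate 2. The mean deviations of the adipocyte (1.43 and 1.28), macrophage (0.53 and 0.52) and endothelial (0.39 and 0.20) marker lists were also highest on these arrays. Of the other pathway genes, 9 of 45 (20.0%) had this pattern, as did 3 of 31 members (9.68%) and 9.54% of all genes. It was looked for after the values had been seen. Slc5a7, the choline transporter of cholinergic neurons, averaged 1.84 log2 units higher on this pair than on the other arrays. The choline transporter-like gene Slc44a3 averaged 1.69 higher, Gpat3, a glycerol-3-phosphate acyltransferase, 1.43, Lpgat1, an acyltransferase of lysophosphatidylglycerol, 1.35, and Agpat2, an acyltransferase known for its need in fat cells, 0.95. Among members the same arrays were highest for Pla2g4a (0.72), Lpcat3 (0.34) and Crls1 (0.27). The part of these cell types in the values was not tested.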
